A study of Homo sapiens with 24 samples.

Results

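Lower doses of 3 compounds were compared in HCT116 cells, a human colorectal carcinoma line. The 2 arrays of the prodrug G669071, whose sample titles hold the word phos, were set against the 4 arrays of decitabine (DAC) at 120 nM and of the prodrug G668684 (ester in the titles) at 150 nM, pooled. These 6 arrays, chosen by title, are part of a series of 24 arrays in 11 groups, which also holds DMSO controls (4 arrays), a higher dose of each of these compounds, and azacytidine and the prodrug G669043 at 150 and 1500 nM. Every group was the same line exposed for 72 h to compound added as a DMSO stock, or to DMSO alone. Titles give G669071 at 6 µM for the lower and 63 µM for the higher dose, while source names give 6 nM and 120 nM. The titles were followed for grouping, and the dose that the cells received is not settled by the labels. The higher doses of the reference compounds were 5 µM for DAC and 7 µM for the ester prodrug. All doses compared are unlike, so effective dose and kind of effect cannot be told apart from these groups, and "phos" below means G669071 at its lower dose unless the higher dose is named.

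Decitabine is a deoxycytidine analog that is incorporated into DNA, where it traps DNMT1, the maintenance DNA methyltransferase, so that methylation is lost as cells divide. Genes held silent by promoter methylation, many of them normally expressed only in germ cells, are the classic genes that rise after such treatment. Analogs of this kind must be taken up and phosphorylated to act, by deoxycytidine kinase (DCK), and cytidine deaminase (CDA) inactivates them.

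Phos gave a lower level than DAC and ester for 108 of 18055 genes and a higher level for 13 (limma, Benjamini-Hochberg adjusted p under 0.05). These are 0.598% and 0.072% of the genes tested, and 0.67% together, whereas 1614 genes had an unadjusted p under 0.05. The lower genes included replication-dependent histone genes, germline and cancer-testis genes such as DAZL and CTAG2, and the cysteine dioxygenase gene CDO1. They also included 3 of 56 genes often methylated in colorectal cancer, UCHL1 and TFPI2 among them. CTAG2, UCHL1 and TFPI2 were read by probe sets that may also pick up other transcripts. Probe sets more specific to these genes gave -0.26, -0.06 and -0.32 (limma, adjusted p = 0.76, 0.92 and 0.51). In that fit DAZL and CDO1 stayed called, at -1.3 and -1.03. The median difference of the 108 lower genes was -0.55 on the log2 scale, and 10 of them differed by at least 2-fold. The 13 higher genes, led by the long noncoding RNA gene VHRT and the adhesion receptor gene ADGRF1, had a median difference of 0.38 and none reached 2-fold. In all 121 genes both phos arrays lay beyond all 4 DAC and ester arrays, an order also found for 9.32% of all genes tested on the low side and 9.23% on the high side. The median difference over all genes was 0.01, and the median half-width of the 95% interval was 0.21.

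The promoters of 4 genes that were lower with phos are shown, to set CG-rich starts beside octamer-bearing ones. Each run is the 250 bases before the gene's start, 5′ to 3′ on the gene's strand, from RefSeq on GRCh38.p14. For the germ cell gene DAZL at chr3:16605424-16605673 (minus strand) and CDO1 at chr5:115816660-115816909 (minus strand), capitals mark every CG dinucleotide, the methylated pair of bases.
DAZL: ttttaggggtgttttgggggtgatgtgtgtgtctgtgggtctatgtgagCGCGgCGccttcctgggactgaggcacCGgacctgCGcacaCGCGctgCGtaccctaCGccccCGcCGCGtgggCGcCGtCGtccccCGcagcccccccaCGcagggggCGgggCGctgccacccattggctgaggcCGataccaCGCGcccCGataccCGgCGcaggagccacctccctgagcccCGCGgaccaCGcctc
CDO1: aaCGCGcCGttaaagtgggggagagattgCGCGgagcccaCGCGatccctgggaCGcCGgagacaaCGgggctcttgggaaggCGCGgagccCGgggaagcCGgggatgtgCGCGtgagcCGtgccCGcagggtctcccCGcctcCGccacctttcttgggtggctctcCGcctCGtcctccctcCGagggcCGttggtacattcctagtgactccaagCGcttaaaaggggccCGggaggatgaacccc
For the histone genes H2BC9 at chr6:26251364-26251613 (plus strand) and H2BC12 at chr6:27146859-27147108 (minus strand), capitals mark the octamer ATTTGCAT, a known element of histone H2B promoters.
H2BC9: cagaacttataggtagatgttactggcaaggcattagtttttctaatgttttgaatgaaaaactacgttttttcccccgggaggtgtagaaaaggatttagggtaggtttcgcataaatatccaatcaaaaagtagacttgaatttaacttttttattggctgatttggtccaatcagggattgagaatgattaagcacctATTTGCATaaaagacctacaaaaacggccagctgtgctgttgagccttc
H2BC12: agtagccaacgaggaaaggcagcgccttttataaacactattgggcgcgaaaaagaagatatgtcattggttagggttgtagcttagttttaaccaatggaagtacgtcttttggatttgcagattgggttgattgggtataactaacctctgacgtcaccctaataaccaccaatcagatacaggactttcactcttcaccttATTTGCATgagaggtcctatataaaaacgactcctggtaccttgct
The DAZL run held 28 CG pairs and the CDO1 run 26, against 4 in H2BC9 and 7 in H2BC12. H2BC12 lies outside the rule for naming genes and was chosen after its values were seen.

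Before the results, the arrays were compared among themselves. The phos replicates correlated at 0.998 over genes, the ester replicates at 0.995 and the DAC replicates at 0.990, a lower value than any DAC array had with an ester array (0.992 to 0.997). The change from the second to the first replicate of DAC followed the change between the DMSO pairs (replicates 1 and 2 against 3 and 4) with a correlation across genes of 0.70. It was 0.49 for ester and -0.22 for phos. No label names a batch, so the result could not be recomputed within one, and whether this axis is technical was not tested. Without DAC replicate 1 the number of genes called was 101, and without DAC replicate 2 it was 106, in place of 121. Of the 17 intestinal epithelial markers, none averaged under 5 in any of the 4 groups at issue. The same held for the blood, keratinocyte and neuronal lists, so this count does not tell cell types apart. The group means were 12.6 to 12.9 for EPCAM and 7.06 to 7.4 for CDX2. KRT20 averaged 5.87 in DMSO and 8.38 with phos.

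Histone genes gave the most called members of any of the 27 lists. Of 38 tested, 9 were lower with phos and 0 higher, beside 0.598% called lower among all genes, and the median over the list was -0.08 against 0.01 over all genes. H1-2, a linker histone gene, read 10.18 and 10.17 log2 on the phos arrays, 11.61 and 11.43 with DAC, 11.42 and 11.34 with ester, and 7.71 to 8.40 on the DMSO arrays. The phos arrays thus sat above every DMSO array and more than a log2 unit below every DAC and ester array. The difference was -1.27 ± 0.14 (SE; adjusted p = 5.9e-05). H2BC12L, an H2B-type histone gene, is not on this list and not among the 9. It read 10.33 and 10.27 with phos, 11.61 and 11.59 with DAC, and 11.53 and 11.43 with ester, against 7.69 to 8.07 in DMSO. No group overlapped another, and the difference was -1.24 ± 0.08 (adjusted p = 7.1e-08), the smallest adjusted p of the comparison. H2BC9, whose octamer is shown above, read 7.74 and 7.81 with phos, 8.92 and 9.10 with DAC, and 8.57 and 9.03 with ester, a difference of -1.13 ± 0.13. H2BC12 differed by -0.90 ± 0.13, with phos at 11.94 and 11.93 and the lowest reference array at 12.65.

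The other called histone genes were the core histone genes H4C8 (-0.93 ± 0.15), H2BC5 (-0.89 ± 0.09), H2BC6 (-0.82 ± 0.11), H2AC8 (-0.73 ± 0.13), H2AC6 (-0.69 ± 0.10) and H2BC4 (-0.55 ± 0.11), all but H4C8 named after their values were seen. Histone paralogs are near-identical, and the probe sets of H2BC12L, H2BC9, H2BC5, H2BC6 and H2AC6 can bind several transcripts, so their signals are not independent. Without such probe sets 5 histone genes were called lower. With the second phos array left out the count was 4, and in a fit on these arrays and DMSO alone it was 3. The 59 S phase and DNA replication genes are active when replication-dependent histone genes are transcribed. Of these, 0 were called in either direction and the median difference was 0.06. The list leaned upward, with 9 of the 59 below 0, beside 47.8% of all genes. In 14 both phos arrays lay above all 4 DAC and ester arrays, an order found for 9.23% of all genes. Whether the cell cycle differed between the groups was not tested.

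Among the 46 germ cell, piRNA and meiosis genes, 5 were lower (DAZL, GCNA, MAEL, TDRD12 and DPPA5) and 0 higher, beside 0.598% and 0.072% of all genes, with a list median of -0.16. DAZL, which binds RNA in germ cells, read 9.09 and 8.95 with phos, 10.02 and 10.93 with DAC, and 10.03 and 10.32 with ester, while the DMSO arrays read 3.99 to 4.51. The DAC replicates were nearly a log2 unit apart, yet both phos arrays lay below the lower of them. The difference was -1.30 ± 0.19 (adjusted p = 0.0013). GCNA, a germ cell nuclear protein, read 10.70 and 10.73 with phos and 11.29 to 11.59 on the reference arrays, a difference of -0.67 ± 0.15. MAEL, a piRNA pathway protein that restrains transposons, read at most 10.23 with phos and 10.58 to 10.91 on the reference arrays, a difference of -0.59 ± 0.11. TDRD12, a tudor protein of the same pathway, differed by -0.48 ± 0.11, and DPPA5, an RNA-binding protein of early germ and pluripotent cells, by -0.50 ± 0.09, both named after their values were seen. The count of this list moved with single arrays: it was 0 without the second phos array, 1 without the first phos array or the second ester array, and 3 without the first ester or the second DAC array.

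Of 22 cancer-testis antigen genes outside the MAGE family, CTAG2, PAGE1 and SSX1 were lower and 0 higher, beside 0.598% and 0.072% of all genes, with a median of -0.10. CTAG2, a tumour antigen close in sequence to CTAG1, read 9.05 and 9.01 with phos, 10.35 and 10.06 with DAC, and 10.14 and 10.05 with ester. All DMSO arrays lay lower still, at 7.23 to 7.57. Its difference was -1.12 ± 0.09 (adjusted p = 1.6e-06), but its probe set can bind several transcripts, and a probe set without that limit gave -0.26 (adjusted p = 0.76). PAGE1 differed by -0.79 ± 0.17 and SSX1 by -0.56 ± 0.12. SSX1, like MAGEA1 below, had no probe set free of that limit, so without cross-binding probe sets PAGE1 was the 1 gene of the list still called. CTAG2 alone stayed called without either phos array, without either ester array or without the second DAC array, where the list's count was 1. Among 12 MAGE genes, MAGEA1 (-0.64 ± 0.15) and MAGEC2 (-0.60 ± 0.12) were lower and 0 higher, beside 0.598% and 0.072% of all genes, with a median of -0.29. MAGEC2 had a second probe set that went the other way, at 0.07. MAGEA4 read 10.54 and 10.53 with phos, within the reference range of 10.50 to 11.27, and its difference of -0.33 (95% interval -0.67 to 0.01) did not pass the test.

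TKTL1, a transketolase-like gene that is normally active in testis, read 12.40 and 12.45 with phos, 12.93 and 12.95 with DAC, and 12.81 and 12.88 with ester, against 4.70 to 5.54 in DMSO. Both phos arrays lay below every reference array, but the difference of -0.47 (95% interval -0.80 to -0.14) did not pass the limma test (adjusted p = 0.28). Of the 21 testis isoform genes, ADAD1, an adenosine deaminase domain protein of testis, was called lower at -0.70 ± 0.12. The share called lower over all genes was 0.598%. ADAD1 read 6.83 and 6.76 with phos, 1 array above and 1 just inside the DMSO range of 6.24 to 6.78, and 7.31 to 7.64 on the reference arrays.

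**Figure D1:**
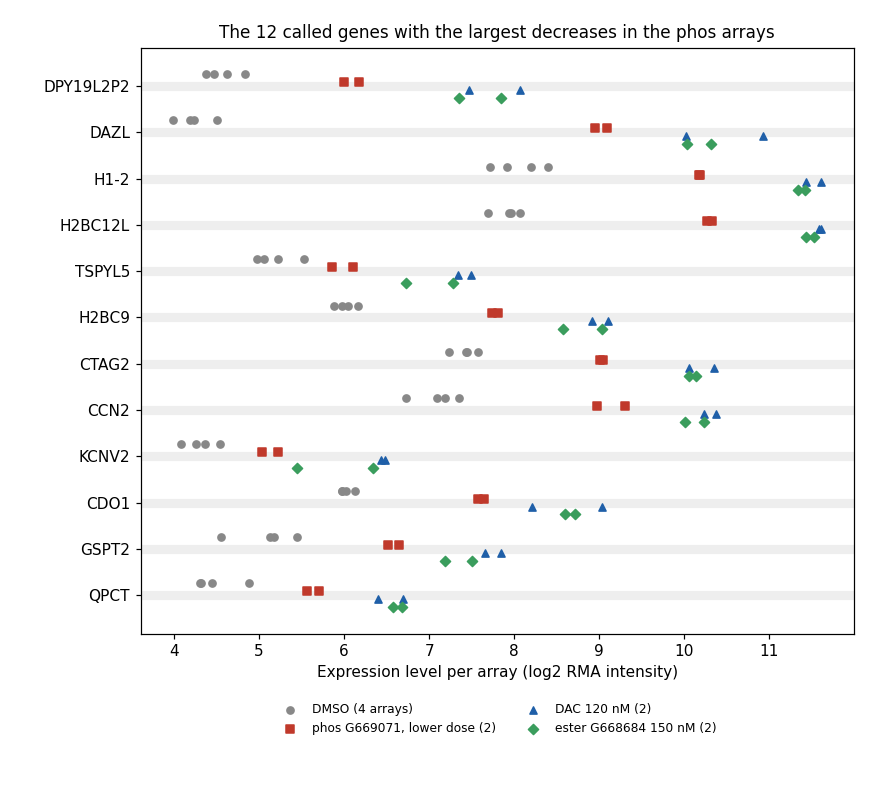
Log2 RMA intensity on each array for the 12 genes called lower with the largest differences, with DMSO as grey circles, phos as red squares, DAC as blue triangles and ester as green diamonds. In every gene both phos squares lie between the DMSO circles and all of the DAC and ester marks, for example DAZL at 9.09 and 8.95.

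The largest difference of all was in DPY19L2P2, a transcribed pseudogene of DPY19L2, which read 6.00 and 6.17 with phos, 7.47 and 8.07 with DAC, and 7.35 and 7.84 with ester. Its DMSO arrays read 4.37 to 4.83, below the level of 5 taken as the filter, so its rise over DMSO has no settled size. The difference between compounds was -1.60 ± 0.16 (adjusted p = 1.9e-05). TSPYL5, a nucleosome assembly family gene, differed by -1.23 ± 0.18, with phos at 6.10 and 5.86 and the nearest reference array at 6.73. CCN2, a secreted matricellular protein and a target of YAP, read 9.30 and 8.97 with phos and 10.01 to 10.37 on the reference arrays, a difference of -1.08 ± 0.13. ANKRD1, another YAP target, chosen after its values were seen, differed by -0.62 ± 0.13. KCNV2, a silent potassium channel subunit gene, differed by -1.05 ± 0.17, and its ester replicates read 5.45 and 6.34. GSPT2, a translation termination factor gene, differed by -0.96 ± 0.18, and QPCT, a glutaminyl cyclase gene, by -0.96 ± 0.18. EZHIP, which inhibits the histone methyltransferase EZH2, differed by -0.92 ± 0.16.

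Of 56 genes often hypermethylated in colorectal cancer, UCHL1, TFPI2 and VIM were called lower and 0 higher, beside 0.598% and 0.072% of all genes, with a median of -0.05. UCHL1, a deubiquitinase, read 9.99 and 10.06 with phos and 10.70 to 10.92 on the reference arrays, a difference of -0.77 ± 0.15. TFPI2, a protease inhibitor, read 7.39 and 7.38 with phos and 7.75 to 8.24 on the reference arrays, a difference of -0.68 ± 0.15. VIM, the intermediate filament vimentin, differed by -0.40 ± 0.07 at levels above 11. All 3 rest on probe sets that can bind several transcripts: without these UCHL1 was at -0.06 (adjusted p = 0.92), TFPI2 at -0.32 (adjusted p = 0.51), and VIM had no value. VIM and UCHL1 also stand on the fibroblast and neuronal lists, where they were the only called members of 20 and 18. The summed intensity of the fibroblast list ran from 3358 to 3807 in DMSO, 6957 to 7022 with phos, 8207 to 8344 with DAC and 7717 to 8010 with ester. For the neuronal list these ranges were 9444 to 9904, 12348 to 12736, 13867 to 16108 and 13261 to 14173. Linear sums weigh the strongest genes most, and VIM alone averaged 7.95 log2 in DMSO and 11.335 with phos. The median difference of phos from DAC and ester was -0.06 for the fibroblast list and 0.005 for the neuronal list. The part of other cell types in these results was not tested, and in bulk RNA fewer expressing cells and less RNA per cell cannot be told apart. CDO1, which is not on that list and catabolises cysteine, read 7.65 and 7.57 with phos, 8.21 and 9.03 with DAC, and 8.60 and 8.71 with ester, a difference of -1.03 ± 0.15. Of 24 imprinted genes, NDN (-0.48 ± 0.10) and TFPI2 were lower, beside 0.598% of all genes. NDN read 6.71 and 6.76 with phos, 1 array below and 1 just inside the DMSO range of 6.75 to 7.02.

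Single called genes stood on 3 stress and immune lists. ATF3, a stress-induced transcription factor, differed by -0.58 ± 0.12 and was the only called gene of 46 on the list for unfolded protein and integrated stress responses, but was at -0.01 (adjusted p = 0.99) without cross-binding probe sets. CBR1, a carbonyl reductase, differed by -0.61 ± 0.11 and was the only one of 32 NRF2 targets. GBP2, an interferon-induced GTPase, differed by -0.54 ± 0.10 and was the only one of 48 interferon-stimulated genes, reading 5.05 on both phos arrays, close to the filter value. These single calls stand beside 0.598% of all genes called lower.

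The 13 genes higher with phos were fewer and their differences smaller. VHRT read 8.69 and 8.63 with phos, 7.68 and 8.21 with DAC, and 7.93 and 8.15 with ester, against 7.01 to 7.41 in DMSO. In VHRT and CPED1, 2 of the 13, DAC and ester lay above DMSO and phos lay above them. Its difference was 0.67 ± 0.13 (adjusted p = 0.017). CPED1 read 8.67 and 8.38 with phos and 7.93 to 8.20 on the reference arrays, a difference of 0.52 ± 0.11, over a DMSO range of 6.17 to 6.49. ADGRF1 read 7.25 and 7.30 with phos, 6.56 and 6.74 with DAC, and 6.56 and 6.75 with ester, while DMSO read 8.22 to 8.42. It was therefore lower than DMSO on all 6 arrays and least so with phos, by 0.62 ± 0.10 (adjusted p = 0.0044). ANXA10, an annexin, showed the same order, with 8.42 and 8.36 for phos, 7.76 to 8.03 on the reference arrays and 9.75 to 9.95 in DMSO, a difference of 0.50 ± 0.07 (adjusted p = 0.00077).

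THOC6, a subunit of the mRNA export complex TREX, was higher than with DAC and ester by 0.48 ± 0.07. It read 7.84 and 7.81 with phos, below the DMSO range of 8.31 to 8.50. S100A4, a calcium-binding protein, read 11.21 and 11.26 with phos, inside the DMSO range of 11.16 to 11.33, and 10.71 to 10.99 on the reference arrays, a difference of 0.40 ± 0.07. KITLG, the ligand of the receptor KIT, was higher than with DAC and ester by 0.34 ± 0.07. At 12.83 and 12.89 with phos it lay below the DMSO range of 13.35 to 13.65. It was the only called gene among 53 p53 targets, beside 0.072% of all genes called higher. The list itself leaned the other way, with 37 of the 53 below 0 and a median of -0.06. MRPL24, a mitochondrial ribosomal protein gene, was higher than with DAC and ester by 0.30 ± 0.06. Its phos arrays read 10.64 and 10.56, below the DMSO range of 11.01 to 11.17. HS3ST1, a heparan sulfate sulfotransferase gene, read 7.64 and 7.48 with phos, 6.71 to 7.49 on the reference arrays and 9.02 to 9.54 in DMSO. Its difference of 0.42 (95% interval 0.04 to 0.80) did not pass the limma test (adjusted p = 0.49). Without the first or the second phos array 1 gene was called higher, without either ester array 5 and 8, and without the first or the second DAC array 7 and 21.

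**Figure D2:**
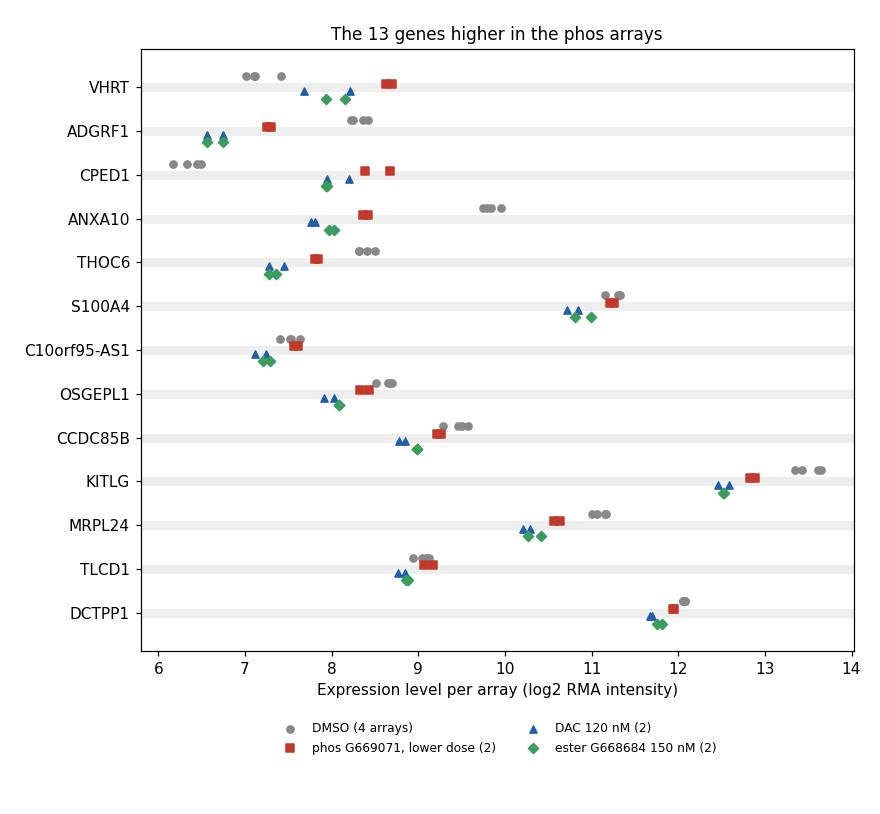
Log2 RMA intensity on each array for the 13 genes called higher with phos, marked as in the plot of the lower genes. Both phos squares lie to the right of all DAC and ester marks, and for several genes, such as ANXA10 at 8.42 and 8.36, to the left of the DMSO circles.

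DNA methylation enzymes did not separate the compounds at this precision. Of 19 genes of the DNA methylation machinery 0 were called in either direction, and their differences ran from -0.31 to 0.18. DNMT1 read 10.35 and 10.39 with phos, 10.62 and 10.36 with DAC, and 10.33 and 10.39 with ester, with DMSO at 10.50 to 10.56. Phos lay within the reference range, and the difference was -0.05 (95% interval -0.25 to 0.14). The intervals were -0.13 to 0.22 for the de novo methyltransferase gene DNMT3A, -0.25 to 0.37 for DNMT3B, -0.21 to 0.19 for the cofactor gene DNMT3L, and -0.17 to 0.31 for UHRF1, which brings DNMT1 to hemimethylated DNA. Array levels are of mRNA, and the loss of DNMT1 protein that decitabine causes is not measured by them.

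Of 39 genes for nucleoside uptake, activation and inactivation, DCTPP1 was the only one called, beside 0.67% of all genes. DCTPP1, a pyrophosphatase that breaks down dCTP and modified dCTP, read 11.94 and 11.95 with phos, 11.67 and 11.70 with DAC, 11.81 and 11.75 with ester, and 12.05 to 12.08 in DMSO. Its difference was 0.21 ± 0.04 (adjusted p = 0.02), the smallest of the 13. DCK read 9.87 and 9.62 with phos and 9.32 to 10.10 on the reference arrays, and its interval of -0.42 to 0.50 was wide. CDA differed by -0.03 (95% interval -0.19 to 0.13). Of 38 ester and phosphoester cleaving enzymes 0 were called, with differences of -0.22 to 0.18.

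CDKN1A, the p21 inhibitor of cell cycle kinases, read 10.72 and 10.81 with phos, 10.88 to 11.09 on the reference arrays and 9.97 to 10.29 in DMSO. Both phos arrays lay below every reference array, but the difference of -0.20 (95% interval -0.35 to -0.05) did not pass (adjusted p = 0.34). In the 66 G2/M and mitosis genes 0 were called and the median was 0.07. Of the 66, 15 were below 0, beside 47.8% of all genes. In 10 both phos arrays lay above all reference arrays, beside 9.23% of all genes. The lists for antigen presentation (24 genes), cholesterol and fatty acid synthesis (29), heat shock and metal response (22), xenobiotic response (18), ribosome biogenesis (35), apoptosis (27), intestinal epithelium (20), blood (13) and keratinocytes (13) also had 0 called genes, with medians from -0.02 to 0.06.

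Against each reference compound alone, adjusted over all genes and the 3 pairs of compounds together, phos was lower for 65 genes (0.36%) and higher for 6 (0.0332%) beside DAC, and lower for 29 (0.161%) and higher for 3 (0.0166%) beside ester. All 121 genes had the same sign against both compounds, which the choice of the genes favours, and 24 of the 108 lower and 3 of the 13 higher genes were called in both pairs. A further 38 lower and 7 higher genes were called in neither. Ester and DAC themselves differed in 4 genes (0.0222%), all lower with ester and named here after their values were seen: TGFB1 (-0.61), TRAPPC1 (-0.55), EEF1A2 (-0.51) and PKM (-0.48). At an unadjusted p under 0.05 ester and DAC differed in 593 genes, and the median half-width of the 95% interval of 1 pair was 0.24. With an array left out, the 71 genes against DAC became 13 and 9 (first and second phos array) or 34 and 29 (first and second DAC array). The 32 against ester became 7 and 6 (phos) or 18 and 9 (ester). The 4 between ester and DAC became 0 without the first array of either, 2 without the second DAC array and 1 without the second ester array. The pairs share arrays and are therefore not independent of each other.

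Set side by side against the same 4 DMSO arrays, phos had 1567 genes higher (8.68%) and 1248 lower (6.91%), 15.6% together. DAC had 2252 higher (12.5%) and 1787 lower (9.9%), 22.4% together. Ester had 1926 higher (10.7%) and 1876 lower (10.4%), 21.1% together. For phos the 2815 genes became 1455 without its first array, 1309 without its second and 4988 against DMSO replicates 3 and 4 alone, and for ester the 3802 genes became 2239 without its first array. Against the same replicates 3 and 4 DAC had 5357 genes and ester 5393. Against DMSO replicates 1 and 2 alone phos had 2663, DAC 4516 and ester 3870. The 108 lower genes had median differences from DMSO of 0.50 with phos, 1.03 with DAC and 0.95 with ester. The 13 higher genes had medians of -0.21, -0.65 and -0.47. The phos mean lay between the DMSO mean and the DAC and ester mean for 91 of the 108, on the far side of DMSO for 16, among them NDN and PIGG, and beyond the reference mean for 1. For the 13 higher genes these numbers were 9, 2 and 2. These comparisons share their controls, so they describe levels only.

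The higher-dose arrays share no array with the comparison, and they show which of these genes also responded to the higher doses. Of the 108 lower genes, 102 (94.4%) were higher than DMSO with DAC and ester at the higher doses and 0 were lower, beside 20.7% of all genes called higher there and 18.2% called lower. With phos at its higher dose 103 (95.4%) were higher than DMSO, beside 15.8% of all genes called higher and 13.7% called lower. The 6 that were not called with DAC and ester at the higher doses were PIGG, PRAMEF12, FBXO36, CSNK2A2, CCDC50 and EIF5, named after their values were seen. PIGG, an enzyme gene of GPI anchor synthesis, was at -0.43 ± 0.09, but the other 3 of its 4 probe sets did not follow. Of the 13 higher genes, 9 were lower than DMSO with DAC and ester at the higher doses and 2 were higher.

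The same was seen from genes chosen on the higher-dose arrays alone. Of 444 genes (2.46% of all) at least 2-fold higher than DMSO with DAC and ester at the higher doses, 377 (84.9%) were lower with phos in the lower-dose comparison, with a median of -0.20, and 65 of them were called lower and 1 higher. Of 116 genes (0.642%) at least 2-fold lower than DMSO, 17 (14.7%) were below 0, with a median of 0.13, and 0 were called lower and 2 higher. The 11044 genes not called at the higher doses had a median of 0.01 with 46.2% below 0, and 6 were called lower and 2 higher. Genes chosen by phos itself at the higher dose gave the like: 414 at least 2-fold higher (2.29%) had a median of -0.23, and 86 at least 2-fold lower (0.476%) had a median of 0.17. Across all 18055 genes the lower-dose difference correlated with the response to DAC and ester at the higher doses at r = -0.43 (rho = -0.27), a description across genes, which are not independent replicates.

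**Figure D3:**
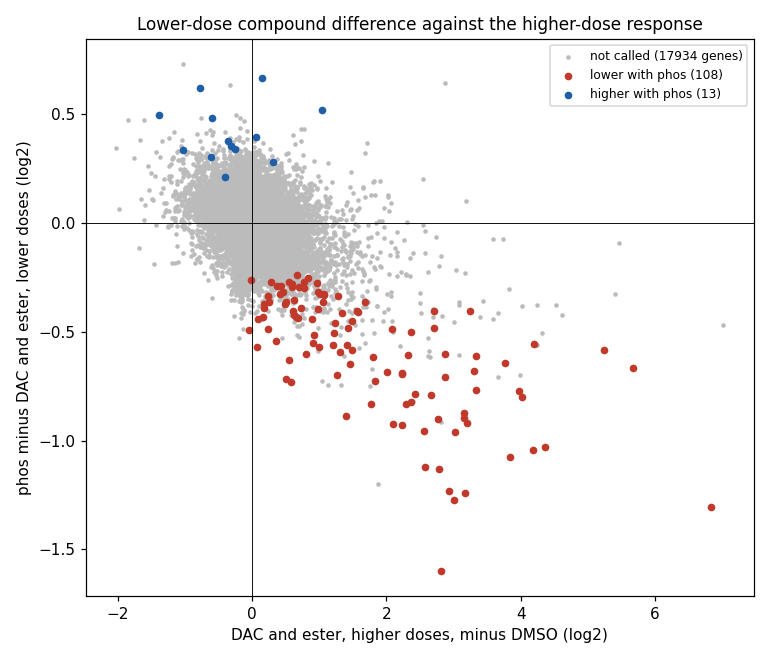
For each gene, the lower-dose difference of phos from DAC and ester (vertical, log2) against the change from DMSO with DAC and ester at the higher doses (horizontal, log2), from arrays that are not shared. The 108 genes called lower lie mostly to the right, where the higher doses raised the gene, and H2BC12L lies at 3.17 and -1.24.

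At the higher doses the compound difference itself was smaller for these genes. Phos at 63 µM by title, against DAC at 5 µM and ester at 7 µM, had 64 genes higher (0.354%) and 198 lower (1.1%), 1.45% together, and of the 108 genes 94 were not called, 11 were higher and 3 lower. Their median difference at the higher doses was 0.07, against -0.55 at the lower doses. The choice of these genes by their lower-dose value favours a value nearer 0 on other arrays. Without the first or the second phos array at the higher dose, 20 and 78 genes were called in place of 262, without the first or the second DAC array 148 and 121, and without the first ester array 140. DAZL read 11.21 and 11.10 with phos at the higher dose and 10.88 to 11.23 with DAC and ester, so the groups overlapped, and the difference was 0.10 ± 0.19. H2BC12L read 11.20 and 11.15, with the highest DAC or ester array at 11.15, a difference of 0.09 ± 0.08. CCN2 read 10.97 and 11.03 beside 10.83 to 11.05, a difference of 0.08 ± 0.13.

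For some genes the order of the compounds was the opposite at the higher doses. DPY19L2P2 read 8.14 and 8.19 with phos at the higher dose and 7.14 to 7.60 with DAC and ester, a difference of 0.79 ± 0.16 (adjusted p = 0.013). VIM (0.47 ± 0.07), GCNA (0.63 ± 0.15), MAEL (0.46 ± 0.11) and EZHIP (0.68 ± 0.16) were also called higher there. ADGRF1 and S100A4, higher with phos at the lower dose, were lower at the higher dose, by -0.47 ± 0.10 and -0.30 ± 0.07. The 3 genes lower with phos at both dose levels were ANKRD1 (-0.76 ± 0.13 at the higher doses), the glycosyltransferase gene B3GALT6 (-0.30) and the keratin-associated protein gene KRTAP3-1 (-0.86), the last 2 named after their values were seen. In the limma fit without cross-binding probe sets the lower-dose difference of B3GALT6 was -0.11 (adjusted p = 0.89). CDKN1A, not called at the lower doses, was lower with phos at the higher dose by -0.46 ± 0.07 (adjusted p = 0.0022).

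The test of the difference between the dose levels called 258 genes (1.43%), 134 (0.742%) with the lower-dose value below the higher-dose value and 124 (0.687%) above it. With any 1 phos array left out 74 to 106 were called, and 169 and 165 without the first DAC or ester array of the higher dose. Among the 108 lower genes 61 were called below and 0 above, and among the 13 higher genes 10 were called above and 0 below, counts that the choice of genes by the lower-dose value favours. The strongest was DPY19L2P2 at -2.38 ± 0.22 (adjusted p = 1.3e-05). EZHIP followed at -1.60 ± 0.22 and the tubulin gene TUBB2B at -1.47 ± 0.22. In the other direction were BTC, a ligand of the EGF receptor, at 1.39 ± 0.34, MAMDC2, a secreted proteoglycan gene, at 1.23 ± 0.23, and HS3ST1 at 1.12 ± 0.26. MAMDC2 and BTC had intervals that spanned 0 at the lower doses, at 0.07 (-0.26 to 0.41) and 0.18 (-0.33 to 0.68), and were lower with phos at the higher dose.

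**Figure D4:**
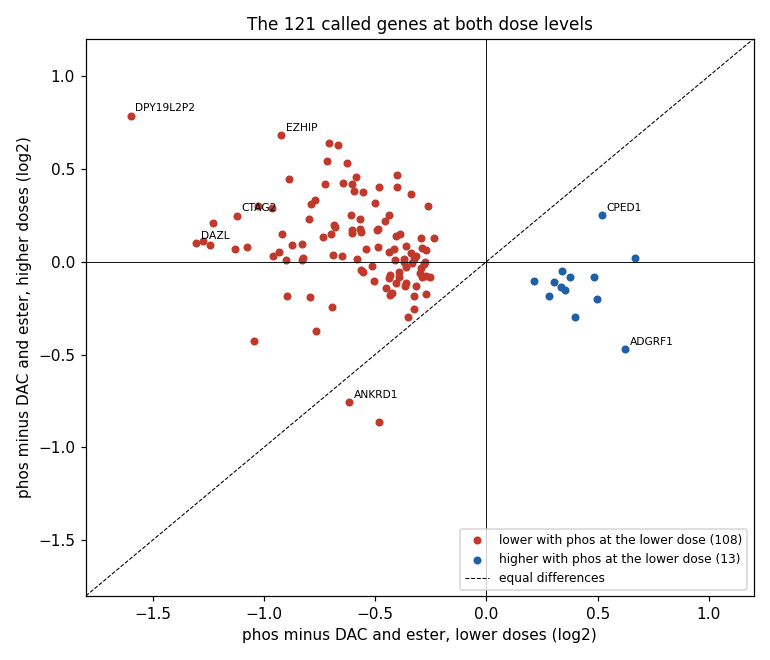
The difference of phos from DAC and ester at the lower doses (horizontal, log2) against that at the higher doses (vertical, log2) for the 121 called genes, with a dashed line where both would be equal. DPY19L2P2 lies at -1.60 and 0.79, while ANKRD1 (-0.62 and -0.76) lies near the line of equal differences.

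The promoters of histone genes, called or not, held fewer CG pairs than those of the other lower genes. A 300-base RefSeq window, 250 bases before and 50 after the start, was matched for 87 of the 108 lower genes, 11 of the 13 higher and 14136 of all tested. The median number of CG pairs was 23 in the lower genes, 20 in the higher and 23 in all tested. The 9 called histone genes of the list had a median of 8, all 37 histone genes tested 12, and the other 78 lower genes 25. The octamer ATTTGCAT, searched on both strands, was in 6 of the 9 called histone genes (66.7%), in 12 of 37 histone genes tested (32.4%), in 0 of the 78 other lower genes and in 1.49% of all tested genes with a window. Of the 6 H2B genes called lower, H2BC12L included, 5 had a window and 4 of these held the octamer. Whether the called histone genes differ in this from uncalled H2B genes was not tested. A match is a run of letters and was not tested as a site of binding.

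The comparison rests on few arrays. Without the first phos array 22 genes were called, without the second 13, without the first ester array 75 and without the second 56. In all 6 of these fits, DAC arrays included, 11 genes remained called: DPY19L2P2, H1-2, H2BC12L, H2BC9, CTAG2, CCN2, H2BC5, DRC9, H2BC6, ZNF697 and ANXA10. DRC9, a gene of motile cilia, differed by -0.83 ± 0.09, and ZNF697, a zinc finger gene, by -0.60 ± 0.08, both named after their values were seen. In the limma fit without cross-binding probe sets DRC9 was at -0.21 (adjusted p = 0.78) and CTAG2 at -0.26 (adjusted p = 0.76). H2BC12L, H2BC9, H2BC5 and H2BC6 also rest on probe sets that can bind several transcripts, so their calls are not independent. A fit on the 6 arrays alone called 34 genes, and one on these and DMSO called 8. The beta-actin 3′ minus 5′ signal, a sign of RNA quality, was 0.09 and 0.03 with phos, -0.06 and 0.09 with DAC and -0.07 and 0.02 with ester, and with it as a covariate 284 genes were called, all 121 among them.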

How the data were processed

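Expression was measured with HG-U133 Plus 2.0 arrays (Affymetrix). Per the submitters' processing notes, the authors ran RMA in Expression Console 1.1 from Affymetrix, and the deposited table gives a linear intensity for each of 54675 probe sets. Their log2 was taken here. It fell on steps of 0.01, RMA had already normalized the arrays, and no detection call was used. Not given in the sources used here is a genome build. The table held 62 control probe sets, 41091 with 1 gene symbol, 1801 several and 11721 none in the array's probe table, and the gene numbers of 41037 matched RefSeq. No column of values was left unused and no 2 arrays were identical.

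Probe sets at a log2 level of 5 or more on 2 or more arrays were kept, and the one with the highest mean stood for its gene, which gave 18055 genes. The limma package 3.58.1 (R 4.3.3) fitted 11 group means over the 24 arrays by lmFit and eBayes with an intensity trend, on 13 residual and 6.14 prior degrees of freedom. A gene was called where its 2-sided p, adjusted by Benjamini and Hochberg's method, was under 0.05. Errors are SEs and intervals 95% intervals from the fit. The fit was also run on simulated data with independent noise on each array. Some arrays here shared deviations, so that run cannot show how the errors hold for these data. Other steps used Python 3.11.15, pandas 2.3.3 and matplotlib 3.10.9.

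The groups, the comparison and the 27 gene lists, of whose 988 entries 858 were tested, were chosen with earlier results of these data known, so lists are described by counts and medians alone. Genes were named from a pool: the 12 called genes with the largest differences each way whose phos arrays lay beyond all reference arrays, up to 3 called members of each list, 15 fixed genes, and the 3 highest and lowest of the difference between dose levels. Other genes were named after their values were seen, as the text marks, or as markers. The labels do not say that replicates were separate cultures, so p-values measure only how these samples varied, which may be technical, and the number of arrays limits the precision. Alternatives were 17 for the main comparison: 2 other normalizations, 2 filters, 2 probe set rules, 2 smaller fits, no trend, the replicate number as a block, a beta-actin covariate, and each array left out. The replicate numbers were not used as pairs, since deviations of same-numbered arrays correlated at -0.25 for phos and DAC, -0.17 for phos and ester, and 0.61 for DAC and ester.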

Additional observations from a re-analysis of the deposited data

Results flagged for a closer look

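The difference of phos from DAC and ester at the lower doses, minus that at the higher doses, was tested for every gene and called for 258 genes. The values below are that difference on the log2 scale, where below 0 means that the lower-dose difference was the more negative of the pair. They include the lower-dose differences by which many of these genes were chosen.

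Among histone genes the values were H1-2 (-1.39), H2BC12L (-1.33), H2BC9 (-1.2), H2BC12 (-0.91), H4C8 (-0.98), H2BC5 (-0.71), H2BC6 (-0.84) and H2AC8 (-0.87). Among germ cell, testis and cancer-testis genes they were DAZL (-1.4), GCNA (-1.3), MAEL (-1.04), TDRD12 (-0.88), DPPA5 (-0.82), CTAG2 (-1.37), PAGE1 (-1.1), SSX1 (-0.93), MAGEA1 (-1.07), MAGEC2 (-0.98), ADAD1 (-0.85) and TKTL1 (-0.97). For CDO1 and genes of the remaining lists they were CDO1 (-1.33), UCHL1 (-1.1), VIM (-0.87), CBR1 (-0.86) and GBP2 (-0.61). Other genes with values below 0 were DPY19L2P2 (-2.38), TSPYL5 (-1.44), CCN2 (-1.15), GSPT2 (-1.25), EZHIP (-1.6), TUBB2B (-1.47), DRC9 (-0.93) and ZNF697 (-0.77). Genes with values above 0 were ADGRF1 (1.1), ANXA10 (0.7), THOC6 (0.57), S100A4 (0.7), KITLG (0.47), MRPL24 (0.42), DCTPP1 (0.32), HS3ST1 (1.12), MAMDC2 (1.23) and BTC (1.39).

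On 1 of the 4 DMSO arrays S100A4 read 11.16, apart from the other 3 at 11.31 to 11.33. An array standing apart was looked for in the DMSO group of 66 genes, and chance alone gives about 1 such array in 20 groups.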

How the results depend on the processing

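Of the 121 genes, 95 had a value in each of 17 alternatives, and 89 of these kept their direction in every one. The other 26 lacked a value in at least 1 alternative and kept it in those that gave one. The exceptions were MAGEC2, PIGG, CYLD, MARCHF6, EIF5 and CCDC85B (named for this), which turned with probe sets averaged or with those that can bind several transcripts left out, in the latter case to 0.0674 (MAGEC2), 0.09 (PIGG) and -0.065 (CCDC85B). The difference between dose levels of MAGEC2 became 0.0377 there. Counts moved more than directions. In the pooled comparison 34 genes were called on the 6 arrays alone (1 higher, 33 lower), 8 on these and DMSO (0 and 8), 75 without cross-binding probe sets (64 lower), 184 after quantile normalization (36 higher, 148 lower), 284 with the beta-actin covariate (33 and 251), and 13 to 106 with 1 array left out (1 to 21 higher, 12 to 94 lower). The block on replicate number, which the arrays do not share as pairs, gave 245 (44 higher, 201 lower), all 121 among them. It gave 155 genes against DAC, 73 against ester, 8 between ester and DAC, 570 at the higher doses and 514 for the difference between dose levels. Phos against DAC (71) gave 5 in the fit with DMSO, 159 with the covariate, 37 without cross-binding probe sets and 9 to 34 with an array left out. Phos against ester (32) gave 2, 66, 16 and 6 to 18, and 56 after quantile normalization. Ester against DAC (4) gave 0 in the fit with DMSO, 2 after quantile normalization, with averaged probe sets or without cross-binding ones, and 0 to 2 with an array left out. Against DMSO, the fit on these arrays called 1466 genes for phos, 2574 for DAC and 2352 for ester. For DAC and ester, DMSO replicates 3 and 4 alone gave 5357 and 5393. Against DMSO replicates 3 and 4 alone phos had 4988, and with an array left out 1309 to 3081 (ester 2239 to 4023). At the higher doses (262) there were 484 with the covariate, 161 without cross-binding probe sets, and 20 to 353 with an array left out (20 without the first phos array, 78 without the second, 121 to 148 without either DAC array or the first ester array). The difference between dose levels (258) gave 405 after quantile normalization, 515 with the covariate and 74 to 297 with an array left out (74 to 106 without any 1 phos array, 169 and 165 without the first DAC or ester array at the higher dose). Germ cell genes called lower were 3 on the 6 arrays alone or without the trend, 1 in the fit with DMSO, 10 with the covariate and 0 to 7 with an array left out. Cancer-testis genes outside MAGE were 1 in the fit with DMSO or without cross-binding probe sets, and 1 to 2 with an array left out. Histone genes were 3 in the fit with DMSO, 5 without cross-binding probe sets and 4 to 9 with an array left out. The cause of these shifts was not tested beyond the smaller number of arrays or genes in some fits. RMA signals near the filter value of 5 have no settled fold, which touches 12 of the 108 genes with a DMSO mean under 5.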
